A study of Mus musculus with 12 samples.

Results

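Genes that interferons switch on were followed across the sorted cells of mouse colon adenomas. The list holds 46 interferon-induced genes, given by symbol, out of 17097 genes that the array covers with at least 1 probe set of a single symbol. Of the 46, 42 had such a probe set, and 40 passed the filter on dim signal that left 12595 genes for testing. Isg15, Ifi44, Bst2 and Gbp6 had no probe set carrying their symbol alone and were not analysed here. Mx2 and Gbp3 stayed under the filter level of 4.40 on the log2 scale on all 12 arrays, so they were not tested. Where a gene had several probe sets, the brightest was used. Counts below are of the 40 tested members, not of the whole list.

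The cells came from colon adenomas of 3 mice, were sorted into 4 populations, and had their RNA read on an Affymetrix array. The sort used Mex3a, the gene of an RNA-binding protein, and Lgr5, the gene of a receptor that marks intestinal stem cells. Lgr5+ cells were Mex3a+ or Mex3a-, and so were Lgr5- cells, which makes 4 groups of 3 arrays. Each of the mice MKL347, MKL358 and MKL367 gave 1 array per group. All 12 titles carry ki/+, whose meaning the labels do not state, and other alleles, the reporters behind the sort, ages and treatments are not stated in the labels. Each replicate was a pool of different adenomas of a mouse, with 500 sorted cells per population for MKL358 and 2000 for MKL347 and MKL367. The labels give 25 ng of total RNA as the input of a whole transcriptome amplification. Signals are on the log2 scale, so a difference of 1 is a doubling. 3 signals given for a population are those of MKL347, MKL358 and MKL367 in this order.

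Interferons bind receptors whose kinases phosphorylate STAT proteins. Complexes that hold Stat2 and Irf9 bind the interferon-stimulated response element, or ISRE, while interferon gamma acts mainly through the gamma-activated site, or GAS. The genes they switch on sense foreign nucleic acid, block viral entry and translation, cut or starve viral RNA, mark proteins with ubiquitin-like tags and present antigen. In the gut, epithelial cells keep part of this programme active without infection.

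The response elements can be read in front of some members, and 6 stretches are shown because they belong to members that were higher, lower or not called with Mex3a status. RefSeq promoter windows (build GRCm38.p6) matched 35 of the 46 listed genes, and the 250 bases before the start site were searched on both strands, with overlapping matches counted. The ISRE core GAAANNGAA occurred in 15 of the 35 genes (42.9%), against 2211 of all 27025 genes with a window (8.18%). The GAS letters TTCNNNGAA occurred in 8 of the 35 (22.9%), against 2197 of all genes (8.13%). By call, the ISRE core stood before 2 of 8 members that were higher with Mex3a in either Lgr5 state and 3 of 10 that were lower. It stood before 7 of 13 that were not called and 3 of 4 that were not tested. The GAS letters stood before 1, 4, 2 and 1 of these members, in the same order. Each line below runs 5′ to 3′ along the gene's strand, and capitals mark the letters of an ISRE core match on either strand. Igtp and Ifitm2 rose with Mex3a in the tests that follow, and their stretches lie at chr11:58199492-58199555 (plus strand) and chr7:140955969-140956037 (minus strand), with the match ending 25 and 37 bases before the start site. Ifih1 and Trim30d fell, and theirs lie at chr2:62646329-62646397 and chr7:104507851-104507919 (minus strand), 103 and 31 bases before the start. Rsad2 (chr12:26456533-26456601, minus strand, 110 bases) and Ifit1 (chr19:34640750-34640843, plus strand, 75 bases) were not called. Ifit1 holds 3 matches, of which the first pair overlaps.
Igtp: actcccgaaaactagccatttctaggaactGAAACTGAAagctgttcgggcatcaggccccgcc
Ifitm2: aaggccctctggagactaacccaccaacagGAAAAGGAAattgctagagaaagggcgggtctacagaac
Ifih1: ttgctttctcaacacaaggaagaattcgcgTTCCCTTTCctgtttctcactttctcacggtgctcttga
Trim30d: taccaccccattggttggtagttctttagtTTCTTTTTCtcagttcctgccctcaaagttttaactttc
Rsad2: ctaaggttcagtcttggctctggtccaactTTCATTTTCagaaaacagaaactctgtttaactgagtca
Ifit1: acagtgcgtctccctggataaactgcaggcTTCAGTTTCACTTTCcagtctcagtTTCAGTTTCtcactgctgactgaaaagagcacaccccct
These matches describe the sequence only, and no binding was measured.

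The sorted genes went with their labels. Mex3a was higher in Mex3a+ cells, by a log2 difference of 0.58 in Lgr5+ cells and 0.79 in Lgr5- cells (SE 0.14, adjusted p = 0.0085 and 0.0008, or 0.0579 and 0.00924 without the mouse as a block). Lgr5 was higher in Lgr5+ cells, by 1.09 in Mex3a+ cells and 2.01 in Mex3a- cells (SE 0.15, adjusted p = 0.0289 and 6.55e-05, or 0.584 and 0.00221 without the block). Lgr5 also differed with Mex3a status, by 1.27 within Lgr5- cells (adjusted p = 4.92e-05, 0.00214 without the block) and by 0.36 within Lgr5+ cells (adjusted p = 0.108). All 12 epithelial markers passed the filter, and their mean signal was 9.89 to 10.26 in Mex3a+ Lgr5+ cells, against 10.44 to 10.59 in Mex3a- Lgr5+ cells, and 9.85 to 10.20 in Mex3a+ Lgr5- cells, against 10.56 to 10.76 in Mex3a- Lgr5- cells. Of all genes tested, 13.2% fell with Mex3a in Lgr5+ cells and 21.1% in Lgr5- cells. Of the 12 markers, 9 (75%) fell and 1 (Krt18) rose in Lgr5+ cells, and 10 (83.3%) fell in Lgr5- cells, with medians of -0.32 and -0.39. Without the block, 5 and 8 fell and 0 rose. Among the markers that fell were the intestinal factor Cdx1 (-1.31 and -1.31), the brush border protein Vil1 (-0.96 and -1.16) and the keratin Krt19 (-0.57 and -0.62). The part of this shift in the values of the interferon-induced genes was not tested. Of 17 lymphocyte markers on the array, 7 stayed under the filter level on every array, among them Ptprc, Cd3e and Ms4a1, the list's mean was 4.35 to 4.59, and 0 were called with Mex3a in either state. Of 12 fibroblast and smooth muscle markers on the array, 9 passed the filter, and Col1a2, Pdgfra and Lum were under its level on every array. Vim rose with Mex3a in both states (1.88 and 2.09), and Acta2 in Lgr5- cells (0.54), where the Acta2 call was lost without the block (adjusted p = 0.198). The list's mean was 5.34 to 5.45 in Mex3a+ Lgr5+ cells, against 5.11 to 6.13 in Mex3a- Lgr5+ cells, and 5.38 to 5.42 in Mex3a+ Lgr5- cells, against 5.16 to 5.30 in Mex3a- Lgr5- cells. The value of 6.13 is that of the Mex3a- Lgr5+ array of MKL367, which stands apart in the collagens Col1a1 (8.70, against 6.14 to 6.74 on the other 11 arrays) and Col3a1 (9.34, against 4.70 to 6.86) and in Dcn (7.25, against 4.60 to 4.88). Comparisons that use Mex3a- Lgr5+ cells include this array. Their calls among the members are also given without it, except for the Mex3a effect averaged over the Lgr5 states. Of 5 tested markers of plasmacytoid dendritic cells, which make type I interferon, Tcf4 rose in both states (0.92 and 1.13) and 4 were not called. The part of these lists in the results that follow was not tested. In pools of sorted cells, fewer cells of a type and less RNA per cell cannot be told apart.

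In the median member, the mouse accounted for more of the spread than the sort did. Over the 40 members, the mouse held a median of 49.5% of a gene's sum of squares over the 12 arrays, Mex3a status 14.7%, Lgr5 status 2.64% and the interaction 3.38%. Over all 12595 genes the medians were 24.9% for the mouse, 22.4% for Mex3a status and 24.0% for the residual, which was 7.90% among the members. The mouse held over 50% in 19 members (47.5%), against 2437 genes (19.3%). Psmb8, a subunit of the immunoproteasome, had the highest mouse share at 94.1%, followed by the GTPase Iigp1 at 92.5% and the ADP-ribosyltransferase Parp14 at 90.5%. Oasl1, a relative of the oligoadenylate synthetases, had the lowest at 2.57%, then the membrane protein Ifitm2 at 5.61%. MKL358 had the lowest mean of the 3 mice in 33 of the 40 members, against 4719 of all 12595 genes. MKL347 had the highest in 30 members, against 4298 of all genes. The mean signal of the 40 members was 6.15 to 6.36 on the 4 arrays of MKL358, 6.86 to 7.20 on those of MKL347 and 6.69 to 6.95 on those of MKL367. MKL358 is also the mouse with 500 cells per pool, so mouse and cell number cannot be told apart. Differences between populations were tested within mice.

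**Figure D1:**
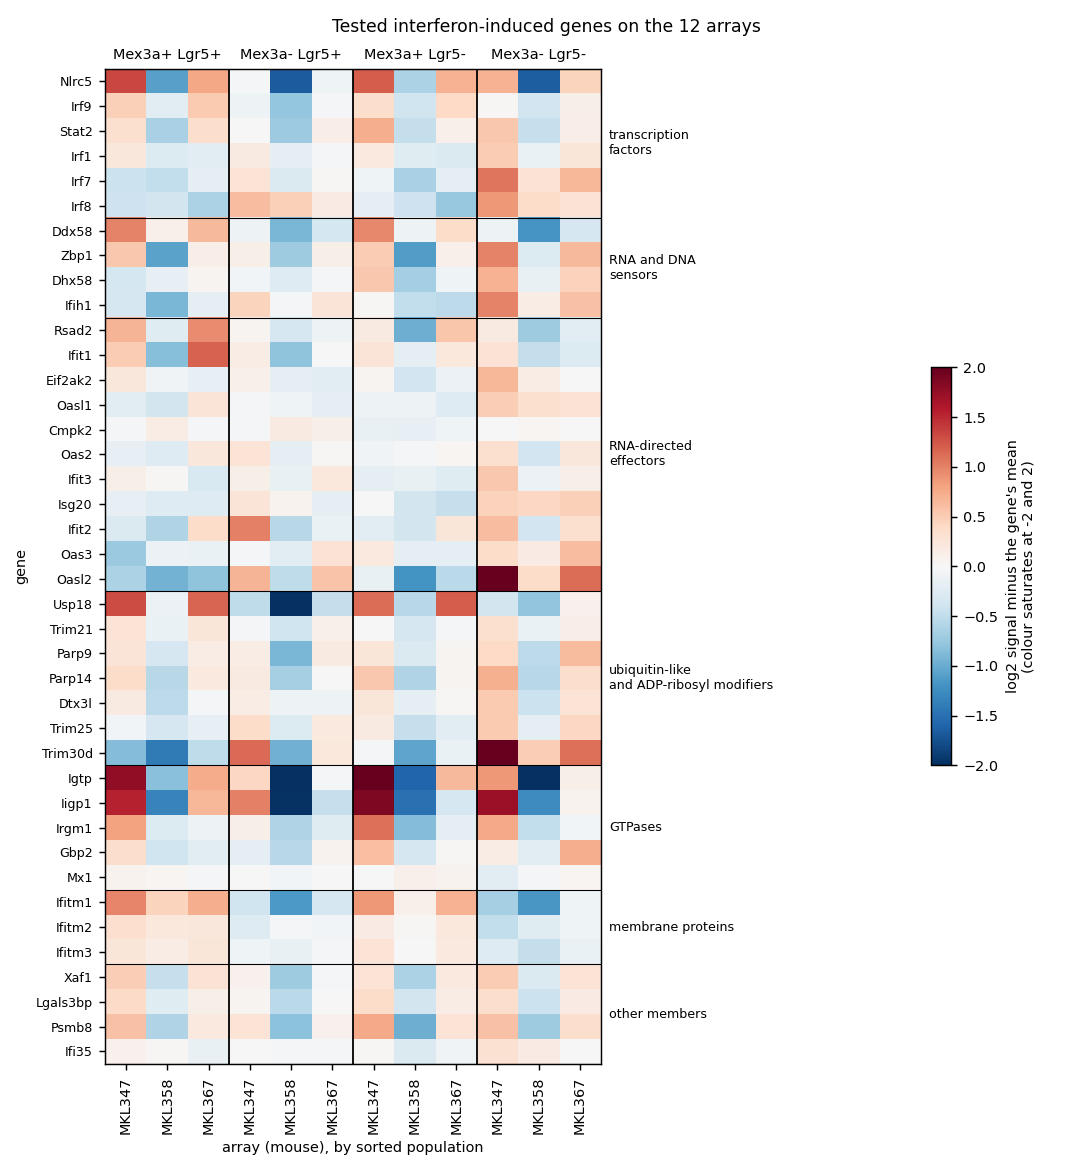
Heat map of the log2 signal of the 40 tested members (vertical axis, grouped by role) on the 12 arrays (horizontal axis, by population and mouse), each gene shown as its difference from its own mean and the colour ending at -2 and 2. The MKL358 column is the bluest of the 3 mice for most members (33 have their lowest mean there, against 4719 of all 12595 genes). Irf7, Isg20, Oasl2 and Trim30d are redder in the Mex3a- Lgr5- columns.

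**Figure D2:**
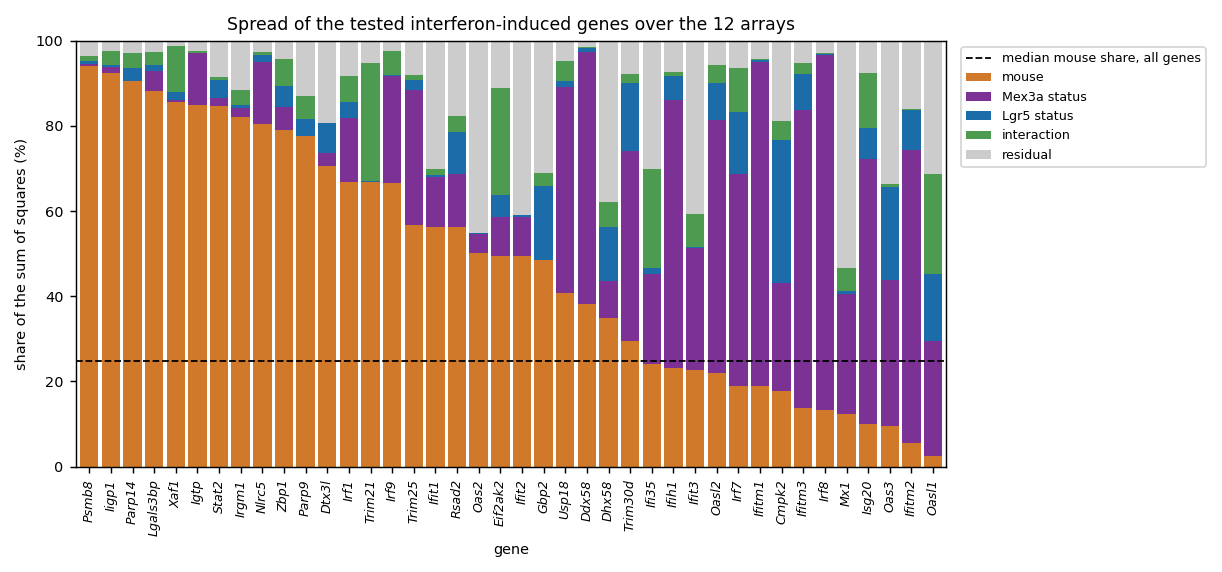
Stacked bars of the share (%) of each tested member's sum of squares over the 12 arrays that goes with the mouse, Mex3a status, Lgr5 status, their interaction and the residual, ordered by the mouse share. The dashed line is the median mouse share of all genes tested (24.9%), and the bars run from 94.1% for Psmb8 to 2.57% for Oasl1.

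Mex3a status split the members in both directions. In Lgr5+ cells, 11 members rose in Mex3a+ relative to Mex3a- cells (27.5%) and 4 fell (10%), where a call is a limma adjusted p under 0.05 over all genes. Of all genes tested, 8.84% rose and 13.2% fell in this comparison. Without the Mex3a- Lgr5+ array of MKL367, 10 members rose and 4 fell there, and the call lost was that of Xaf1 (adjusted p = 0.0638). In Lgr5- cells, 7 members rose (17.5%) and 11 fell (27.5%), against 10.8% and 21.1% of all genes. With the mouse as a random effect, the calls of Igtp, Iigp1, Xaf1, Nlrc5 and Lgals3bp in Lgr5+ cells and of Irf1, Igtp, Zbp1 and Nlrc5 in Lgr5- cells were lost. Fits without the mouse as a block called 2 members higher and 1 lower in Lgr5+ cells, and 3 higher and 7 lower in Lgr5- cells. The median log2 difference of the members was 0.12 in Lgr5+ cells and -0.16 in Lgr5- cells, beside -0.0078 and -0.025 over all genes. Single arrays moved these medians: the first was 0.074 in Lgr5+ cells without the Mex3a- Lgr5+ array of MKL347, and the second -0.091 in Lgr5- cells without the Mex3a+ Lgr5- array of MKL367. Averaged over the Lgr5 states, 10 members were higher and 11 lower, against 15.9% and 25.3% of all genes. In both states, 11 members were called: Usp18, Ifitm1, Ifitm2, Ifitm3, Igtp, Ddx58 and Nlrc5 rose in both (7 members, 6.55% of all genes), and Oasl2, Trim30d, Irf8 and Ifih1 fell in both (4 members, 11.1% of all genes). A rise was called in Lgr5+ cells alone for Irf9, Iigp1, Xaf1 and Lgals3bp, and a fall in Lgr5- cells alone for Irf7, Isg20, Zbp1, Oasl1, Eif2ak2, Trim25 and Irf1. Of the others, 18 were called in neither state, and 0 were called in opposite directions. A call in 1 state alone does not show that the states differ, and that difference is tested further on.

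**Figure D3:**
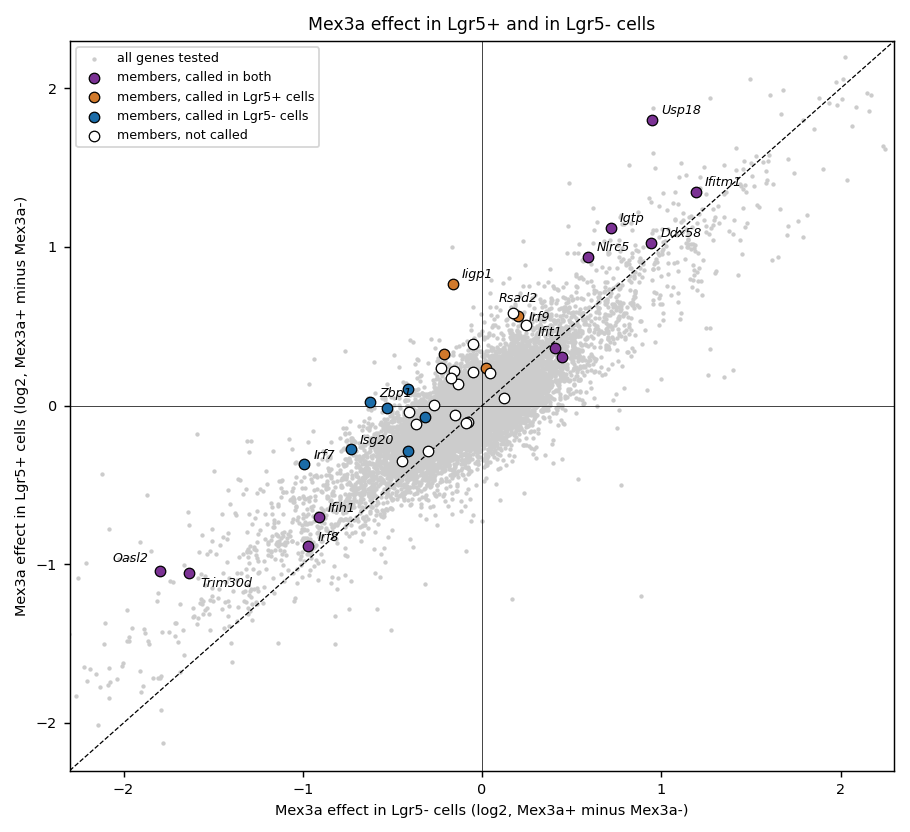
Mex3a effect (log2, Mex3a+ minus Mex3a-) in Lgr5+ cells (vertical axis) against that in Lgr5- cells (horizontal axis), with members as coloured or open circles by call, all 12595 genes in grey and equality dashed; 58 genes lie outside the axis limits of 2.3. The members lie mostly above the dashed line, from Usp18 (1.80 and 0.95) to Oasl2 (-1.04 and -1.80).

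The counts by role that follow rest on few genes each, and several shares lie near those of all genes (8.84% higher and 13.2% lower in Lgr5+ cells, 10.8% and 21.1% in Lgr5- cells), so nothing is read from them. Among the 6 transcription factors, 2 rose (33.3%) and 1 fell (16.7%) with Mex3a in Lgr5+ cells, and 1 rose (16.7%) and 3 fell (50%) in Lgr5- cells. Irf7, the factor that amplifies interferon production, was called only in Lgr5- cells, where it fell 1.99-fold. Irf7 read 5.75, 5.69 and 6.02 in Mex3a+ Lgr5+ cells, against 6.46, 5.89 and 6.22 in Mex3a- Lgr5+ cells. Its signals were 6.10, 5.54 and 6.0 in Mex3a+ Lgr5- cells and 7.26, 6.49 and 6.86 in Mex3a- Lgr5- cells. The 3 Mex3a- Lgr5- arrays were the highest of all 12, and they did not overlap the Mex3a+ Lgr5- arrays, while the Lgr5+ populations overlapped. The log2 difference was -0.37 in Lgr5+ cells (adjusted p = 0.0556, 0.345 without the block) and -0.99 in Lgr5- cells (adjusted p = 9.62e-05, 0.00928 without the block), with an SE of 0.13.

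Irf8, a factor of myeloid and lymphoid development that interferon also induces, fell with Mex3a in both Lgr5 states. Irf8 read 6.63, 6.67 and 6.41 in Mex3a+ Lgr5+ cells, against 7.66, 7.51 and 7.20 in Mex3a- Lgr5+ cells. It read 6.84, 6.63 and 6.29 in Mex3a+ Lgr5- cells, against 7.92, 7.42 and 7.34 in Mex3a- Lgr5- cells. Every Mex3a+ array was below every Mex3a- array. The log2 differences were -0.89 in Lgr5+ cells (adjusted p = 0.000101, 0.0187 without the block) and -0.97 in Lgr5- cells (adjusted p = 2.8e-05, 0.00543 without the block, SE 0.10). A dimmer Irf8 probe set gave -0.79 and -0.80. Myeloid cells express Irf8, and 2 of their 11 tested markers (18.2%) fell with Mex3a in Lgr5+ cells and 3 (27.3%) in Lgr5- cells. These shares lie near the 13.2% and 21.1% of all genes that fell. Of the 16 on the array, Adgre1, Itgam and Cd163 were under the filter level on every array. The list's mean signal was 5.05 to 5.18 in Mex3a+ Lgr5+ cells, against 5.02 to 5.42 in Mex3a- Lgr5+ cells, and 5.10 to 5.19 in Mex3a+ Lgr5- cells, against 5.26 to 5.53 in Mex3a- Lgr5- cells. Cd14 (-0.94 and -1.09) and Tyrobp (-0.87 and -0.81) fell in both states, and Mrc1 fell in Lgr5- cells (-0.38). Without the block Cd14 kept both calls, while Tyrobp had adjusted p of 0.181 and 0.153 and Mrc1 of 0.262. The macrophage markers Cd68 (0.04 and 0.01), Csf1r (0.01 and -0.16), Lyz2 (0.00 and -0.05), Itgax (0.10 and 0.22) and Cx3cr1 (0.15 and -0.05) were not called. Fcer1g, C1qa and C1qc were not called either, and averaged lower in Mex3a+ cells in both states. Of the 11, 5 were positive and 6 negative in Lgr5+ cells, and 2 and 9 in Lgr5- cells. By limma, 4 of the 11 had an unadjusted p under 0.05 in each state, all of them negative. Among all 12595 genes, 4266 and 5308 had such a p, in either direction. Of 10 neutrophil markers on the array, 6 passed the filter. S100a8, S100a9 and Il1b fell in both states (50% of the 6, against 13.2% and 21.1% of all genes). Without the block 0 did so (adjusted p from 0.0975 to 0.532). That list averaged 4.49 to 4.90 in Mex3a+ Lgr5+ cells, against 4.63 to 5.69 in Mex3a- Lgr5+ cells, and 4.74 to 5.26 in Mex3a+ Lgr5- cells, against 4.81 to 6.08 in Mex3a- Lgr5- cells. The part of these markers in the change of Irf8 was not tested.

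Irf9, the DNA-binding partner of Stat2, rose with Mex3a in Lgr5+ cells. Irf9 read 8.46, 7.78 and 8.52 in Mex3a+ Lgr5+ cells, against 7.89, 7.22 and 7.95 in Mex3a- Lgr5+ cells. It read 8.35, 7.60 and 8.39 in Mex3a+ Lgr5- cells, against 8.02, 7.61 and 8.11 in Mex3a- Lgr5- cells. MKL358 was low throughout and the populations overlapped, while within mice the Lgr5+ difference was 0.57, 0.56 and 0.57. The fitted difference was 0.57 (SE 0.08, adjusted p = 0.000422, 0.247 without the block) in Lgr5+ cells and 0.20 in Lgr5- cells (adjusted p = 0.0841, 0.669 without the block). Nlrc5, the activator of class I antigen presentation genes, rose by 0.94 (adjusted p = 0.001, 0.526 without the block) in Lgr5+ cells and by 0.59 (adjusted p = 0.0118, 0.647 without the block) in Lgr5- cells, and the second call was lost without MKL358 (adjusted p = 0.0818). Irf1, which interferon gamma induces strongly, fell by 0.32 in Lgr5- cells (adjusted p = 0.0162, 0.295 without the block), and this was lost without MKL347 (adjusted p = 0.106) or MKL367 (adjusted p = 0.227). Its difference in Lgr5+ cells was -0.07 (adjusted p = 0.635). Stat2 was called in neither state, with differences of 0.21 and 0.04.

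Of the 4 tested sensors of foreign nucleic acid, 1 rose (25%) and 1 fell (25%) in Lgr5+ cells, and 1 rose (25%) and 2 fell (50%) in Lgr5- cells. Ddx58, which encodes RIG-I, a sensor of viral RNA ends, rose in both Lgr5 states. Ddx58 read 8.34, 7.45 and 7.99 in Mex3a+ Lgr5+ cells, against 7.26, 6.44 and 7.0 in Mex3a- Lgr5+ cells. Ddx58 signals were 8.32, 7.25 and 7.71 in Mex3a+ Lgr5- cells and 7.25, 6.18 and 7.02 in Mex3a- Lgr5- cells. Mex3a+ and Mex3a- arrays did not overlap in Lgr5+ cells, and in Lgr5- cells the MKL358 Mex3a+ array came level with the MKL347 Mex3a- array. The difference was 1.03 in Lgr5+ cells (adjusted p = 3.06e-05, 0.0933 without the block) and 0.94 in Lgr5- cells (adjusted p = 2.19e-05, 0.082 without the block, SE 0.10), or 2.04-fold and 1.92-fold. The 2 dimmer Ddx58 probe sets were also higher, by 0.51 and 0.29 in Lgr5+ cells and by 0.28 and 0.22 in Lgr5- cells. Ifih1, which encodes MDA5, a sensor of long double-stranded RNA, fell by 0.70 in Lgr5+ cells (adjusted p = 0.00298, 0.107 without the block) and by 0.91 in Lgr5- cells (adjusted p = 0.000315, 0.0257 without the block). Its signals were 5.27 to 6.0 in Mex3a+ Lgr5+ cells, against 6.16 to 6.62 in Mex3a- Lgr5+ cells, with no overlap.

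Zbp1, a sensor of left-handed nucleic acid that can start necroptosis, fell with Mex3a in Lgr5- cells alone. Zbp1 read 8.41, 6.79 and 7.99 in Mex3a+ Lgr5+ cells, against 7.99, 7.15 and 7.99 in Mex3a- Lgr5+ cells. Zbp1 signals were 8.38, 6.75 and 7.97 in Mex3a+ Lgr5- cells and 8.86, 7.60 and 8.51 in Mex3a- Lgr5- cells. In each mouse the Mex3a- Lgr5- array was the highest of its 4, and the populations overlapped across mice. The difference was 0.02 in Lgr5+ cells (adjusted p = 0.939, 0.988 without the block) and -0.62 in Lgr5- cells (adjusted p = 0.00294, 0.427 without the block, SE 0.13). The dimmer Zbp1 probe set did not show it, with -0.08 in Lgr5+ and -0.07 in Lgr5- cells. Dhx58, which encodes the regulator LGP2, was not called, at -0.04 and -0.41, though a dimmer probe set fell by 0.50 in Lgr5- cells in the fit over all probe sets (adjusted p = 0.0311).

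All 3 tested IFITM genes, which encode membrane proteins that hinder viral fusion, rose with Mex3a in both Lgr5 states. Ifitm1 read 11.34, 10.81 and 11.10 in Mex3a+ Lgr5+ cells, against 9.96, 9.21 and 10.03 in Mex3a- Lgr5+ cells. Ifitm1 signals were 11.24, 10.46 and 11.06 in Mex3a+ Lgr5- cells and 9.70, 9.20 and 10.29 in Mex3a- Lgr5- cells. Every Mex3a+ array was above every Mex3a- array. The difference was 1.35 in Lgr5+ cells (adjusted p = 3.42e-05, 0.0211 without the block) and 1.19 in Lgr5- cells (adjusted p = 3.33e-05, 0.017 without the block, SE 0.13), which is 2.54-fold and 2.29-fold. Ifitm3, the broadest antiviral member of the family, changed less but with a small spread. Ifitm3 read 11.84, 11.74 and 11.84 in Mex3a+ Lgr5+ cells, against 11.50, 11.44 and 11.57 in Mex3a- Lgr5+ cells. Ifitm3 signals were 11.86, 11.60 and 11.78 in Mex3a+ Lgr5- cells and 11.33, 11.11 and 11.46 in Mex3a- Lgr5- cells. Its Mex3a+ arrays lay above its Mex3a- arrays, by 0.30 in Lgr5+ cells (adjusted p = 0.00138, 0.0565 without the block) and 0.45 in Lgr5- cells (adjusted p = 5.63e-05, 0.00628 without the block, SE 0.05). Ifitm2 rose by 0.37 (adjusted p = 0.00896, 0.0477 without the block) in Lgr5+ cells and 0.41 (adjusted p = 0.00338, 0.0178 without the block) in Lgr5- cells, and the first call was just lost without MKL347 (adjusted p = 0.0501). The IFITM genes are close relatives, and how far their probe sets read each other was not tested. The same holds for the Trim30, Oas, Ifit and immunity-related GTPase families.

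Of the 5 tested interferon-inducible GTPases, which act on pathogen-containing vacuoles or viral particles, 2 rose in Lgr5+ cells (40%) and 1 in Lgr5- cells (20%), and 0 fell. Igtp, also called Irgm3, read 9.16, 6.54 and 8.13 in Mex3a+ Lgr5+ cells, against 7.79, 5.31 and 7.36 in Mex3a- Lgr5+ cells. Igtp signals were 9.39, 5.79 and 8.04 in Mex3a+ Lgr5- cells and 8.24, 5.32 and 7.50 in Mex3a- Lgr5- cells. The mice lay far apart and the populations overlapped, yet in each mouse the Mex3a+ array was the higher. The difference was 1.12 in Lgr5+ cells (adjusted p = 0.000813, 0.58 without the block) and 0.72 in Lgr5- cells (adjusted p = 0.00892, 0.682 without the block, SE 0.18), and the second call was lost without MKL347 (adjusted p = 0.06). With the mouse as a random effect, neither Igtp call held.

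Iigp1, another immunity-related GTPase, rose with Mex3a in Lgr5+ cells alone. Iigp1 read 7.03, 4.15 and 6.16 in Mex3a+ Lgr5+ cells, against 6.50, 3.52 and 5.03 in Mex3a- Lgr5+ cells. Iigp1 signals were 7.36, 4.0 and 5.16 in Mex3a+ Lgr5- cells and 7.20, 4.24 and 5.57 in Mex3a- Lgr5- cells. MKL358 was under the filter level in every population, and the populations overlapped. The difference was 0.77 in Lgr5+ cells (adjusted p = 0.00881, 0.733 without the block) and -0.16 in Lgr5- cells (adjusted p = 0.523, 0.935 without the block, SE 0.18), and the call was lost with the mouse as a random effect. The dimmer Iigp1 probe set gave 0.39 and -0.13. Irgm1, Gbp2 and Mx1 were not called, with differences of 0.39, 0.14 and 0.05 in Lgr5+ cells and -0.05, -0.13 and 0.12 in Lgr5- cells.

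The 11 tested effectors that act on RNA or nucleotides gave 1 fall (9.09%) and 0 rises in Lgr5+ cells, and 4 falls (36.4%) and 0 rises in Lgr5- cells. Oasl2, a catalytically active relative of the oligoadenylate synthetases, fell most among them. Oasl2 read 5.05, 4.73 and 4.88 in Mex3a+ Lgr5+ cells, against 6.36, 5.17 and 6.25 in Mex3a- Lgr5+ cells. Oasl2 signals were 5.52, 4.49 and 5.15 in Mex3a+ Lgr5- cells and 7.70, 6.05 and 6.80 in Mex3a- Lgr5- cells. Mex3a+ and Mex3a- arrays did not overlap within either Lgr5 state. The difference was -1.04 in Lgr5+ cells (adjusted p = 0.00236, 0.148 without the block) and -1.80 in Lgr5- cells (adjusted p = 3.3e-05, 0.0116 without the block, SE 0.20), a 3.48-fold fall in the second.

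Isg20, an exonuclease that degrades viral RNA, fell in Lgr5- cells alone. Isg20 read 6.91, 6.81 and 6.82 in Mex3a+ Lgr5+ cells, against 7.33, 7.15 and 6.89 in Mex3a- Lgr5+ cells. Isg20 signals were 7.06, 6.71 and 6.61 in Mex3a+ Lgr5- cells and 7.54, 7.48 and 7.55 in Mex3a- Lgr5- cells. The 3 Mex3a- Lgr5- arrays were the highest of all 12 and lay close together (SD 0.04), and the Lgr5+ populations overlapped. The difference was -0.28 in Lgr5+ cells (adjusted p = 0.0793, 0.256 without the block) and -0.73 in Lgr5- cells (adjusted p = 0.000204, 0.00458 without the block, SE 0.10). Oasl1, a relative that dampens translation of Irf7, fell by 0.53 in Lgr5- cells (adjusted p = 0.0139, 0.0284 without the block), which was lost without MKL347 (adjusted p = 0.1). Its difference in Lgr5+ cells was -0.02. Eif2ak2, the kinase PKR that halts translation, fell by 0.42 in Lgr5- cells (adjusted p = 0.00995, 0.142 without the block), and this was lost without MKL347 (adjusted p = 0.141) or MKL358 (adjusted p = 0.0794). In Lgr5+ cells it differed by 0.10.

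Rsad2, which encodes viperin, an enzyme that makes a chain-terminating nucleotide, just missed the threshold in Lgr5+ cells. Rsad2 read 7.10, 6.17 and 7.36 in Mex3a+ Lgr5+ cells, against 6.47, 6.09 and 6.32 in Mex3a- Lgr5+ cells. Rsad2 signals were 6.59, 5.45 and 6.97 in Mex3a+ Lgr5- cells and 6.60, 5.71 and 6.19 in Mex3a- Lgr5- cells. Each mouse had its highest signal in Mex3a+ Lgr5+ cells, and the populations overlapped across mice. The difference was 0.59 in Lgr5+ cells (adjusted p = 0.0529, 0.416 without the block) and 0.17 in Lgr5- cells (adjusted p = 0.547, 0.804 without the block, SE 0.20), while a dimmer Rsad2 probe set gave 0.66 in Lgr5+ cells (adjusted p = 0.00617 over all probe sets) and 0.03 in Lgr5- cells. Cmpk2, the nucleotide kinase encoded beside it, varied little. Cmpk2 read 6.20, 6.40 and 6.22 in Mex3a+ Lgr5+ cells, against 6.23, 6.42 and 6.36 in Mex3a- Lgr5+ cells. Cmpk2 signals were 6.10, 6.08 and 6.15 in Mex3a+ Lgr5- cells and 6.24, 6.29 and 6.25 in Mex3a- Lgr5- cells. Its Mex3a differences were -0.06 and -0.15 (adjusted p = 0.685 and 0.219). Ifit1, Ifit2, Ifit3, Oas2 and Oas3, classical markers of the interferon response, were called in neither state. Of these, Ifit2 was over the filter level of 4.40 on 5 of the 12 arrays, Oas3 on 6 and Ifit1 on 7. Signals of these 3 genes were thus often near the floor, where a change could be missed. Their differences ran from -0.35 for Oas3 to 0.51 for Ifit1 in Lgr5+ cells, and from -0.44 for Oas3 to 0.25 for Ifit1 in Lgr5- cells.

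Among the 7 tested genes of ubiquitin-like and ADP-ribosyl modification, 1 rose and 1 fell in Lgr5+ cells (14.3% each), and 1 rose (14.3%) and 2 fell (28.6%) in Lgr5- cells. Usp18, the protease that strips the tag Isg15 and also quiets the type I receptor, rose by more than any other member in Lgr5+ cells. Usp18 read 7.43, 6.0 and 7.29 in Mex3a+ Lgr5+ cells, against 5.62, 4.05 and 5.65 in Mex3a- Lgr5+ cells. Usp18 signals were 7.24, 5.56 and 7.34 in Mex3a+ Lgr5- cells and 5.76, 5.33 and 6.21 in Mex3a- Lgr5- cells. Mex3a+ and Mex3a- arrays did not overlap in Lgr5+ cells, and in Lgr5- cells only MKL358 lay inside the other population. The difference was 1.80 in Lgr5+ cells (adjusted p = 5.65e-05, 0.0697 without the block), 3.49-fold, and 0.95 in Lgr5- cells (adjusted p = 0.00247, 0.272 without the block, SE 0.19), 1.93-fold.

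Trim30d, a member of a cluster of interferon-induced TRIM genes, fell in both states. Trim30d read 3.93, 3.39 and 4.29 in Mex3a+ Lgr5+ cells, against 5.93, 3.83 and 5.01 in Mex3a- Lgr5+ cells. Trim30d signals were 4.75, 3.74 and 4.66 in Mex3a+ Lgr5- cells and 6.87, 5.28 and 5.89 in Mex3a- Lgr5- cells. Every Mex3a+ Lgr5+ array was under the filter level, and the Lgr5- populations did not overlap. The difference was -1.05 in Lgr5+ cells (adjusted p = 0.00721, 0.251 without the block) and -1.63 in Lgr5- cells (adjusted p = 0.000258, 0.0483 without the block, SE 0.24), and a nearly as bright probe set gave -0.70 and -1.09. Trim21, an antibody receptor and ubiquitin ligase, was called in neither state. Trim21 read 6.77, 6.35 and 6.72 in Mex3a+ Lgr5+ cells, against 6.47, 6.08 and 6.59 in Mex3a- Lgr5+ cells. Trim21 signals were 6.49, 6.15 and 6.44 in Mex3a+ Lgr5- cells and 6.81, 6.35 and 6.61 in Mex3a- Lgr5- cells. In every mouse the Mex3a+ array was higher in Lgr5+ cells and lower in Lgr5- cells, by 0.23 and -0.23 (adjusted p = 0.0795 and 0.0687), yet its other, nearly as bright probe set gave -0.03 and -0.01. Trim25, the ligase that acts on RIG-I, fell by 0.42 in Lgr5- cells (adjusted p = 0.00796, 0.224 without the block), lost without MKL367 (adjusted p = 0.136). The partners Parp9 and Dtx3l and their relative Parp14 were not called, with differences of 0.22, -0.11 and 0.17 in Lgr5+ cells and -0.16, -0.09 and -0.17 in Lgr5- cells.

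The other 4 members gave 2 rises in Lgr5+ cells (50%) and 0 calls in Lgr5- cells. Xaf1, a partner of the apoptosis inhibitor XIAP, read 6.34, 5.40 and 6.15 in Mex3a+ Lgr5+ cells, against 5.94, 5.15 and 5.83 in Mex3a- Lgr5+ cells. Xaf1 signals were 6.13, 5.22 and 6.05 in Mex3a+ Lgr5- cells and 6.36, 5.56 and 6.12 in Mex3a- Lgr5- cells. The populations overlapped, and within mice Mex3a+ was the higher in all 3 Lgr5+ pairs and the lower in all 3 Lgr5- pairs. The difference was 0.32 in Lgr5+ cells (adjusted p = 0.0189, 0.618 without the block), lost without MKL347 (adjusted p = 0.198) or MKL367 (adjusted p = 0.125), and -0.21 in Lgr5- cells (adjusted p = 0.0876, 0.704 without the block, SE 0.09). Lgals3bp, a secreted galectin ligand, rose by 0.24 in Lgr5+ cells (adjusted p = 0.0183, 0.639 without the block), lost without MKL347 (adjusted p = 0.209) or MKL358 (adjusted p = 0.0782), and differed by 0.02 in Lgr5- cells. Psmb8 and Ifi35 were called in neither state, with differences of 0.21 and 0.01 in Lgr5+ cells and -0.05 and -0.27 in Lgr5- cells.

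**Figure D4:**
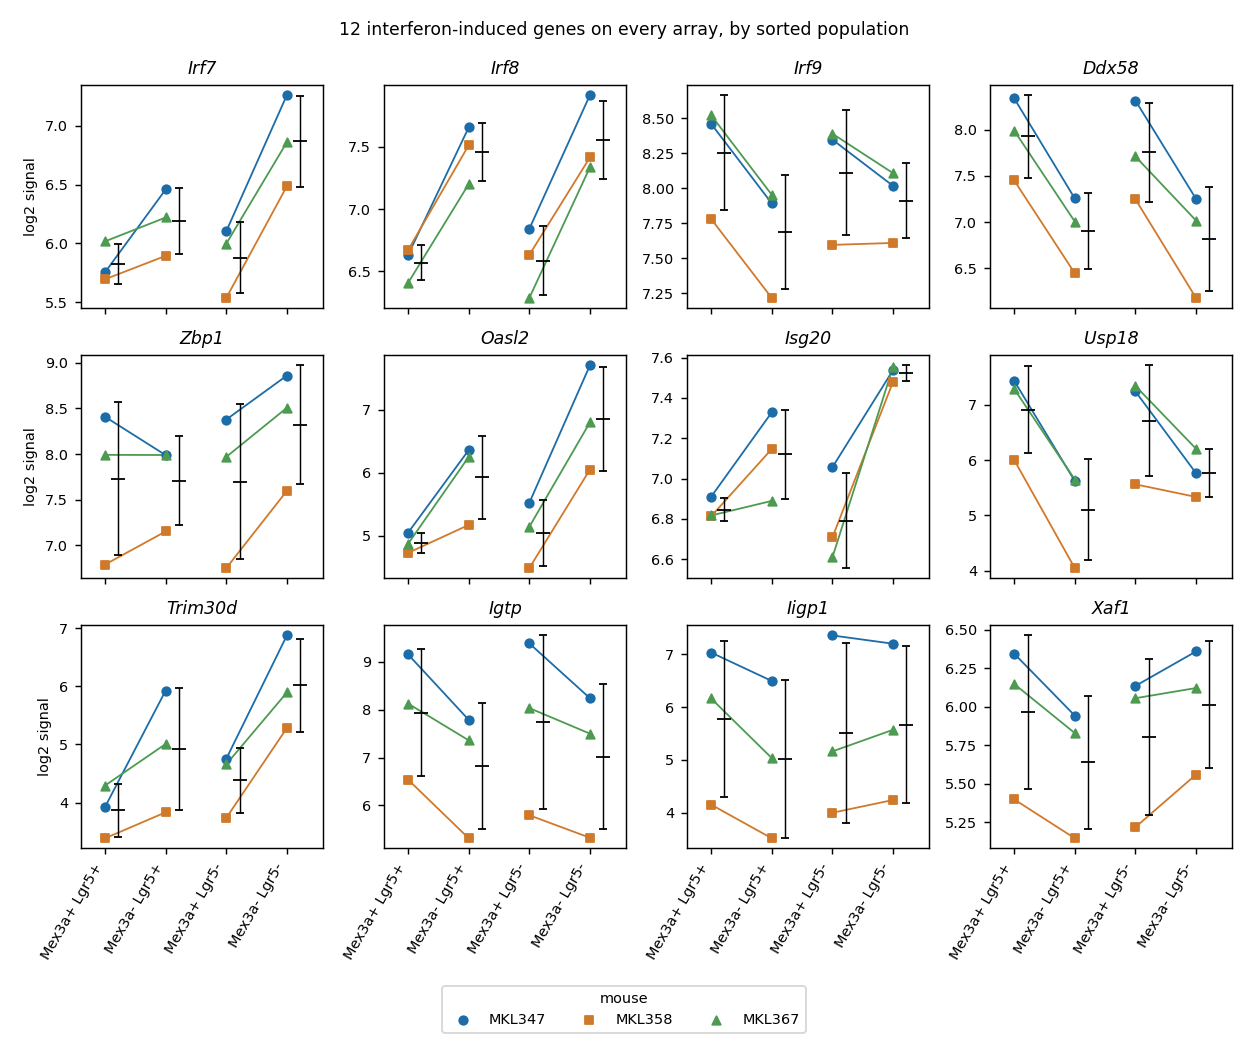
Log2 signal (vertical axis) of 12 members on every array, by population (horizontal axis) and mouse (symbol), with lines joining the Mex3a+ and Mex3a- arrays of a mouse and black bars giving the mean ± SD of 3 mice. Irf8 and Oasl2 fall towards Mex3a+ in both Lgr5 states, Usp18 and Ddx58 climb, and Irf7, Isg20 and Zbp1 stand highest in Mex3a- Lgr5- cells.

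The difference between the Mex3a effects, that in Lgr5+ cells minus that in Lgr5- cells, leaned to positive values but passed the test for no member. By limma, 0 of 40 members and 0 of 12595 genes (0%) had an adjusted p under 0.05, and the smallest among the members was 0.351, for Xaf1. At an unadjusted p under 0.05 there were 13 members (32.5%), all positive, against 1078 genes (8.56%). Without the mouse as a block, 2 members and 359 genes had such a p, and with the mouse as a random effect 5 members had it. The sign was positive in 35 of 40 members (87.5%), against 57.2% of all genes, and the median difference was 0.27, against 0.029 over all genes. Without the Mex3a- Lgr5+ array of MKL367 the median was 0.34 and 0 members were called. Members of a shared programme are not independent, so these shares describe the list. The median over the members was 0.25 in MKL347, 0.31 in MKL358 and 0.30 in MKL367, with 31, 29 and 34 members positive. In 22 members (55%) the difference was positive in all 3 mice, against 20.4% of all genes, and in 3 it was negative in all. The Mex3a effects in Lgr5+ and in Lgr5- cells come from different arrays of the same mice.

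By role, the difference was positive in 6 of 6 transcription factors, 4 of 4 sensors, 10 of 11 RNA-directed effectors, 6 of 7 modifiers, 4 of 5 GTPases and 4 of 4 other members, but in 1 of 3 IFITM genes. Iigp1 had the largest fitted difference, 0.93 (95% interval 0.38 to 1.49, adjusted p = 0.383), then Usp18 with 0.85 (0.27 to 1.44, adjusted p = 0.412) and Oasl2 with 0.76 (0.15 to 1.36, adjusted p = 0.486). For Zbp1 it was 0.64 (0.24 to 1.04, adjusted p = 0.396), but -0.010 on the dimmer probe set. Irf7 gave 0.62 (0.23 to 1.01, adjusted p = 0.402), with 0.45, 0.75 and 0.66 in the 3 mice. Xaf1, with the smallest p, gave 0.54 (0.26 to 0.81), and its mice 0.63, 0.59 and 0.39. Trim21 gave 0.46 (0.19 to 0.74, adjusted p = 0.383) on the brightest probe set and -0.022 on the other. The positive sign came from genes of both directions: Usp18 and Iigp1 stood higher with Mex3a in Lgr5+ cells, and Oasl2 and Irf7 stood less low there. Ddx58 (0.08, -0.21 to 0.38) and Irf8 (0.08, -0.24 to 0.40) had values near 0, and Ifitm3 had the lowest value, -0.14 (-0.30 to 0.02). In all 3 mice, 4 members (10%) were higher with Mex3a in Lgr5+ cells and lower in Lgr5- cells, against 1.01% of all genes, and 0 ran the opposite way. Those 4 were Parp14, Trim21, Xaf1 and Eif2ak2.

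**Figure D5:**
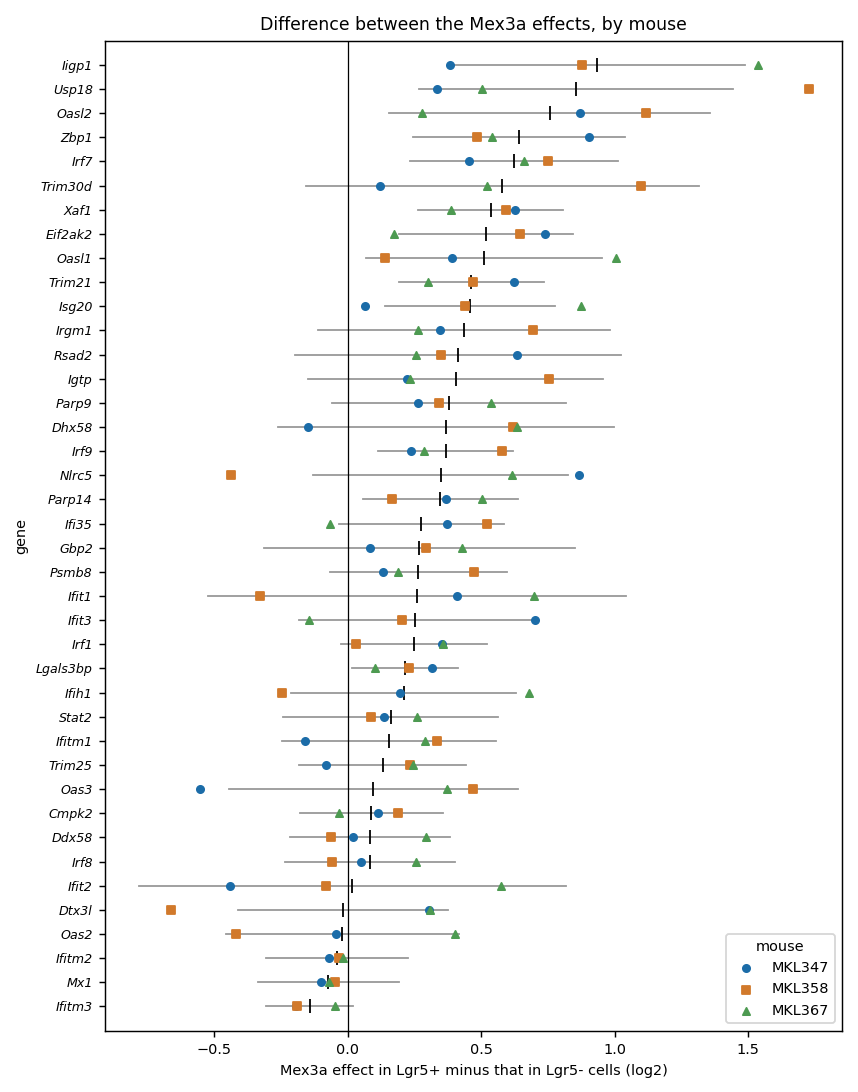
Difference between the Mex3a effects (log2, that in Lgr5+ minus that in Lgr5- cells, horizontal axis) for each of the 40 members (vertical axis) in the 3 mice (symbols), with the fitted value as a black tick and its 95% interval as a grey line. Most symbols lie right of 0, from Iigp1 (0.93) at the top to Ifitm3 (-0.14) at the bottom.

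Set by Lgr5 status instead, 4 members were called in Mex3a- cells and 0 in Mex3a+ cells, and the difference between the 2 Lgr5 effects is the one tested above. In Mex3a- cells, 0 members rose and 4 fell in Lgr5+ relative to Lgr5- cells, against 0.81% of all genes in each direction, and 21 (52.5%) had an unadjusted p under 0.05, against 14.4% of all genes. The median was -0.22, beside -0.0052 over all genes, and 33 of 40 members (82.5%) had a negative difference, against 51.5% of all genes. Irf7 fell by 0.68 (adjusted p = 0.0222, 0.521 without the block), Zbp1 by 0.61 (adjusted p = 0.04, 0.981 without the block), Oasl2 by 0.92 (adjusted p = 0.041, 0.783 without the block) and Trim30d by 1.09 (adjusted p = 0.0452, 0.803 without the block). The signals are those given above, and among these 4 only Irf7 was free of overlap between Mex3a- Lgr5+ and Mex3a- Lgr5- arrays. Irf7, Zbp1 and Oasl2 lost their calls when any 1 of the mice was left out (adjusted p up to 0.111, 0.214 and 0.205) and Trim30d without MKL358 (0.250) or MKL367 (0.109). With the mouse as a random effect, or without the Mex3a- Lgr5+ array of MKL367, 0 members were called. In Mex3a+ cells, 0 members were called, against 0.0556% of all genes higher and 0.0159% lower, and 2 had an unadjusted p under 0.05: Rsad2, with 0.54 (adjusted p = 0.484), and Trim21, with 0.25 (adjusted p = 0.48). Averaged over the Mex3a states, Trim30d alone was called, as lower in Lgr5+ cells by 0.80 (adjusted p = 0.0368), against 1.18% of all genes higher and 0.627% lower. The call was lost without MKL358 or MKL367. It was also lost without the Mex3a- Lgr5+ array of MKL367, where the smallest adjusted p of any member was 0.0684. Without the block that smallest value was 0.75. These comparisons reuse the arrays of the Mex3a comparisons, so they are not further evidence: the Mex3a- Lgr5- arrays enter both the Mex3a effect in Lgr5- cells and the Lgr5 effect in Mex3a- cells.

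Of 7 tested interferon ligands and receptors, 2 rose and 1 fell with Mex3a in Lgr5+ cells, and 2 rose and 2 fell in Lgr5- cells. The shares of all genes were 8.84% higher and 13.2% lower in Lgr5+ cells, and 10.8% and 21.1% in Lgr5- cells, for this and the lists below. Ifnar1 and Ifnar2, the chains of the type I receptor, rose by 0.34 and 0.34 in Lgr5+ cells (adjusted p = 0.0141, 0.0644 without the block for Ifnar1, adjusted p = 0.0288, 0.088 without the block for Ifnar2). Their differences in Lgr5- cells were 0.40 (adjusted p = 0.00413, 0.0206 without the block) and 0.34 (adjusted p = 0.0217, 0.058 without the block). Ifngr1, the ligand-binding chain of the interferon gamma receptor, fell in both. Ifngr1 read 7.68, 7.66 and 6.98 in Mex3a+ Lgr5+ cells, against 8.55, 8.31 and 8.27 in Mex3a- Lgr5+ cells. Ifngr1 signals were 7.45, 7.67 and 7.02 in Mex3a+ Lgr5- cells and 8.79, 8.77 and 8.58 in Mex3a- Lgr5- cells. The Mex3a+ and Mex3a- arrays did not overlap, and the differences were -0.93 (adjusted p = 0.000203, 0.0201 without the block) and -1.33 (adjusted p = 1e-05, 0.00195 without the block). Ifngr2, the other chain of that receptor, was called in neither state, with 0.16 (adjusted p = 0.144, 0.273 without the block) and -0.04 (adjusted p = 0.678, 0.755 without the block). Il10rb, a chain shared with the type III receptor, fell by 0.67 in Lgr5- cells (adjusted p = 0.000159, 0.00467 without the block). Ifnb1, Ifng and Ifnlr1 were under the filter. Of 10 tested genes of signal transduction, 0 were called in Lgr5+ cells, and Ptpn6 and Jak1 fell in Lgr5- cells, by 0.32 (adjusted p = 0.03, 0.521 without the block) and 0.24 (adjusted p = 0.0427, 0.18 without the block). Of 13 tested genes of nucleic acid sensing outside the members, 0 were called in Lgr5+ cells, and the endosomal receptor Tlr3 and the adaptor Myd88 fell in Lgr5- cells, by 0.49 (adjusted p = 0.000248, 0.272 without the block) and 0.65 (adjusted p = 0.00953, 0.0334 without the block). Of 2 tested genes listed as other interferon regulatory factors, the corepressor Irf2bp2 rose in both states, by 0.38 and 0.45 (adjusted p = 0.00124, 0.138 without the block in Lgr5+ cells, adjusted p = 0.000229, 0.0519 without the block in Lgr5- cells).

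Outside the 46 genes, 47 further interferon-induced genes were tested. In Lgr5+ cells 7 rose (14.9%) and 8 fell (17.0%) with Mex3a, against 8.84% and 13.2% of all genes, and in Lgr5- cells 5 rose (10.6%) and 17 fell (36.2%), against 10.8% and 21.1%. Fits without the block gave 0 and 2 in Lgr5+ cells and 1 and 7 in Lgr5- cells. The difference between the Mex3a effects was positive in 36 of the 47 (76.6%, against 57.2% of all genes), with a median of 0.20, and by limma 0 were called, with 10 at an unadjusted p under 0.05 (21.3%, against 8.56%). Among those that rose, the GTPases Irgm2 (1.19 and 0.77) and Tgtp1 (1.50 and 0.97) and the surface protein Ly6e (0.37 and 0.34) did so in Lgr5+ and in Lgr5- cells. Of these calls, that of Ly6e in Lgr5- cells alone held without the block (adjusted p = 0.0486). The chemokine Cxcl10 (0.75, adjusted p = 0.0147, 0.122 without the block) and Trim34a (0.37, adjusted p = 0.0211, 0.423 without the block) rose in Lgr5+ cells. In Lgr5- cells Cd274, the checkpoint ligand PD-L1, and Slfn8 rose by 0.35 (adjusted p = 0.0359, 0.0823 without the block) and 0.33 (adjusted p = 0.044, 0.0728 without the block). Falls in both states included the thiol reductase Ifi30 (-1.19 and -1.30), the inflammasome protease Casp1 (-0.76 and -0.91), Slfn4 (-1.25 and -1.56), Ifi27l2b (-0.61 and -1.0) and Oas1g (-0.37 and -0.70). Ifi30 and Casp1 kept both calls without the block, Slfn4 and Ifi27l2b that in Lgr5- cells (adjusted p = 0.146 and 0.0601 in Lgr5+ cells) and Oas1g neither (adjusted p = 0.416 and 0.0708). Myeloid cells also express Ifi30, Casp1 and Slfn4, and the part of the markers given beside Irf8 in their change was not tested. The guanylate-binding protein Gbp7 was called in opposite directions, 0.40 in Lgr5+ cells (adjusted p = 0.0481, 0.808 without the block) and -0.39 in Lgr5- cells (adjusted p = 0.0411, 0.762 without the block), and its difference had an adjusted p of 0.351. In Mex3a- cells, 4 of the 47 fell in Lgr5+ relative to Lgr5- cells, against 0.81% of all genes: Rtp4 (-0.71), Ifi27l2b (-0.63), Casp4 (-0.64) and Oas1g (-0.36), with adjusted p from 0.00643 to 0.0348 and 0.446 to 0.956 without the block.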

How the data were processed

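The deposited values are log2 probe set signals of 1 Affymetrix mouse array per population and mouse, which the authors normalized with RMA per the submitters' processing notes. They were used as deposited, and 0 columns were left out. Of 45141 probe sets, 28898 name 1 gene symbol, 551 several and 15692 none in the platform annotation. For each of the 17097 genes with a symbol of its own, the probe set with the highest mean signal was kept. Genes over the 40th percentile of signal on at least 3 arrays were tested (12595 genes).

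A model with population and mouse was fitted with limma 3.58.1 (R 4.3.3; lmFit, contrasts, eBayes with an intensity trend). Every p called adjusted in the text is limma's, by the Benjamini-Hochberg method over all genes tested, and 0.05 is the threshold. Signed differences are Mex3a+ minus Mex3a- or Lgr5+ minus Lgr5-, and the difference between the Mex3a effects is that in Lgr5+ minus that in Lgr5- cells. The mouse numbers in the titles pair the arrays. After removal of population means, the correlation was 0.349 to 0.694 in the 18 pairs of arrays from 1 mouse and -0.691 to 0.152 in the 48 pairs from unlike mice. Removing these means by itself pushes arrays of 1 population, which are of unlike mice, towards negative values, so the gap between the ranges is no test of the pairing. The mouse is a block because the 4 populations of a mouse come from the same animal. Values, counts or a remark without the block are given for the calls it changes among the genes described.

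The members, gene lists and tests were chosen with earlier results of these data known, so none is independent of them. Signals on every array are given for the 6 members of smallest p in each Mex3a and each Lgr5 effect and the 4 of smallest p for the difference between the Mex3a effects, where 0 were called. Of each further list, up to 5 called genes per direction are named for the Mex3a effect in each Lgr5 state. For the Lgr5 effect in Mex3a- cells, called genes are named for the 47 further interferon-induced genes only. In that comparison, 1 gene of the ligands and receptors and 1 of nucleic acid sensing also fell. Gbp7, Ifngr2 and the signals of Ifngr1, H2-Q4 and Psmb10 were added after their values were seen. Array sums of squares were split by mouse, Mex3a status, Lgr5 status, interaction and residual. Promoter windows are RefSeq's, for GRCm38.p6. The 3 mice per group limit the precision, and arrays give no read depth to compare. Alternatives changed the block, filter, normalization, probe set rule, intensity trend and array weights, and left out each mouse and each array. Scripts were tested on simulated data. Figures and motif searches used Python 3.11.15, pandas 2.3.3 and matplotlib 3.10.9.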

Additional observations from a re-analysis of the deposited data

Results flagged for a closer look

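For 4 members the Mex3a+ array was higher than the Mex3a- array of every mouse in Lgr5+ cells and lower in every mouse in Lgr5- cells. The difference between the Mex3a effects was 0.35 for Parp14 (log2, 0.37, 0.17 and 0.50 in MKL347, MKL358 and MKL367), 0.46 for Trim21 (0.62, 0.47 and 0.30), 0.54 for Xaf1 (0.63, 0.59 and 0.39) and 0.52 for Eif2ak2 (0.74, 0.65 and 0.17). The limma test of that difference passed for none of the 4, with adjusted p from 0.351 (Xaf1) to 0.505 (Parp14). The second probe set of Parp14 gave a difference of 0.20 and that of Trim21 -0.022, while the second of Xaf1 was under the filter and Eif2ak2 has 1.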

How the results depend on the processing

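The block for the mouse was the choice that changed most. Without the pairing, 3 members were called for the Mex3a effect in Lgr5+ cells (15 with it), 10 in Lgr5- cells (18), 11 for the average Mex3a effect (21), 0 for the Lgr5 effect in Mex3a- cells (4) and 0 for the average Lgr5 effect (1). With the mouse as a random effect, the Lgr5 effect in Mex3a- cells and the average Lgr5 effect gave 0 each. Averaging a gene's probe sets gave 1 and 0 for these, a fit with no intensity trend 2 and 0, and array weights 2 for the average. The filter at the 60th percentile left 35 members, with medians of 0.17 for the Mex3a effect in Lgr5+ cells and 0.35 for the difference between the Mex3a effects. The median in Lgr5- cells was -0.14 after quantile normalization, -0.20 after median centring and -0.11 with averaged probe sets. Leaving out a mouse or an array gave 12 to 18 called members in Lgr5+ cells, 15 to 20 in Lgr5- cells, 0 to 5 for the Lgr5 effect in Mex3a- cells, 15 to 20 for the average Mex3a effect and 0 to 3 for the average Lgr5 effect. The medians then ran from 0.074 to 0.17 in Lgr5+ cells, from -0.23 to -0.091 in Lgr5- cells and from 0.21 to 0.35 for the difference. Of the calls, 12 of 15 in Lgr5+ cells and 12 of 18 in Lgr5- cells held without any 1 mouse or array. Over the 26 settings, the difference had 30 to 37 members with a positive sign, 0 called members and 0 to 3 called genes among all tested. Values for single genes kept direction and side of the threshold 2019 times, lost a call 79 times, gained 27 and turned direction 0 times. The causes of these shifts were not tested. Each population has 3 arrays, 1 of them from 500 cells, and the largest fitted difference between the Mex3a effects, 0.93 for Iigp1, did not pass the adjusted threshold.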

Other observations

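Genes of class I antigen presentation, which load peptides for display to T cells and which interferon induces, are described here by their calls. Of 13 tested genes of presentation and of the immunoproteasome, 4 rose (30.8%) and 2 fell (15.4%) with Mex3a in Lgr5+ cells, against 8.84% and 13.2% of all genes, and 2 rose (15.4%) and 4 fell (30.8%) in Lgr5- cells, against 10.8% and 21.1%. Fits without the block called 0 of them in Lgr5+ cells, and 0 higher and 2 lower in Lgr5- cells. H2-Q4, a nonclassical class I gene, read 10.22, 8.24 and 9.76 in Mex3a+ Lgr5+ cells, against 9.14, 7.48 and 8.84 in Mex3a- Lgr5+ cells. H2-Q4 signals were 10.20, 8.01 and 9.73 in Mex3a+ Lgr5- cells and 9.42, 6.92 and 8.69 in Mex3a- Lgr5- cells. The mice lay further apart than the populations, and within each mouse Mex3a+ was the higher, by a fitted 0.92 (adjusted p = 0.000195, 0.524 without the block) and 0.97 (adjusted p = 6.99e-05, 0.413 without the block). The classical heavy chain H2-K1 rose by 0.21 (adjusted p = 0.00102, 0.542 without the block) and 0.12 (adjusted p = 0.0178, 0.685 without the block). H2-D1 and the peptide editor Tapbp rose in Lgr5+ cells, by 0.20 (adjusted p = 0.0239, 0.599 without the block) and 0.28 (adjusted p = 0.0208, 0.469 without the block). Class I genes are close relatives, and how far their probe sets read each other was not tested.

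The genes that fell in this list include some that make or trim the peptides. Psmb10, a catalytic subunit of the immunoproteasome, read 8.94, 8.86 and 8.60 in Mex3a+ Lgr5+ cells, against 9.49, 9.25 and 9.42 in Mex3a- Lgr5+ cells. Psmb10 signals were 9.14, 8.62 and 8.69 in Mex3a+ Lgr5- cells and 9.89, 9.24 and 9.71 in Mex3a- Lgr5- cells. The Mex3a+ and Mex3a- arrays did not overlap within either Lgr5 state, and the differences were -0.59 (adjusted p = 0.00315, 0.0644 without the block) and -0.79 (adjusted p = 0.000255, 0.0107 without the block). Erap1, the aminopeptidase that trims peptides, fell by 0.39 in Lgr5+ cells (adjusted p = 0.025, 0.409 without the block) and by 0.56 in Lgr5- cells (adjusted p = 0.00203, 0.149 without the block). Psme2, a subunit of the proteasome activator, fell in Lgr5- cells by 0.49 (adjusted p = 0.00453, 0.0313 without the block), as did the chaperone Calr, by 0.31 (adjusted p = 0.00834, 0.134 without the block). B2m, Tap1 and Tap2 had no probe set carrying their symbol alone. The difference between the Mex3a effects was positive in 11 of the 13 (84.6%, against 57.2% of all genes), with a median of 0.18, and by limma 0 were called, with 1 at an unadjusted p under 0.05.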
